A study of Mus musculus with 28 samples.

Results

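Collagen chain genes are the genes whose symbols follow the pattern Col, a type number, a and a chain number. They were taken by that pattern alone, without regard to expression, and 44 of the 39152 genes listed were found. Each codes for a single α chain. By the type of collagen that the chains build, 11 were fibrillar, 9 FACIT (fibril-associated collagens with interrupted triple helices), 3 network-forming, 6 basement membrane, 6 beaded filament, 2 multiplexin and 4 transmembrane genes, with 1 anchoring fibril gene (Col7a1) and 2 others (Col26a1 and Col28a1).

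A collagen is a triple helix of chains in which every turn needs a glycine, so each chain carries a long repeat of glycine triplets. Fibrillar chains (types I, III, V and XI) pack side by side into the fibers that give a heart its tensile strength and that accumulate in fibrotic scars, and FACIT chains sit on the surface of those fibers. Type IV chains instead form the sheet-like basement membrane around each cardiomyocyte and capillary, type VI chains form beaded filaments between cells and fibers, and type VIII chains form open networks beneath endothelium and in remodelled matrix. In the heart, most fibrillar collagen is made by fibroblasts.

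RNA was measured in pieces of left ventricle (LV) and right ventricle (RV) of C57BL6 mice, to ask how loss of plakophilin 2, a desmosome protein of cardiomyocytes, and its replacement act on the heart. Pkp2-cKO animals (genotype αMyHC-Cre-ER(T2)/Pkp2 fl/fl, in which tamoxifen turns on a Cre driven by a cardiomyocyte promoter and deletes Pkp2) were given HBSS, the vehicle, and are called cKO. The same Pkp2-cKO line given TN-401, an AAV9 that carries human PKP2, by a single retro-orbital injection 1 week before tamoxifen, is called 3E13 or 6E13 after the dose in vector genomes per kg. WT mice were Pkp2 fl/fl littermates without Cre, given HBSS, so all groups carry the floxed gene. There were 4 cKO, 4 3E13, 3 6E13 and 5 WT LV libraries, and 4 cKO, 2 3E13, 3 6E13 and 3 WT RV libraries, and 12 of the 16 animals gave both. Animals were 3 to 10 months old, and each group held both sexes in each ventricle (2 of 4 cKO, 2 of 4 3E13, 2 of 3 6E13 and 3 of 5 WT animals in LV were female). Hearts were taken 9 weeks after induction, about 10 weeks into the study, but vehicle-treated cKO mice are listed as dead by then in the supplementary data, so collection time and the cKO state cannot be told apart here. The age of each animal was not used here, and whether WT mice had tamoxifen is not given in the sources used here.

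The sequences before the start sites of 4 members are shown because these genes carry the contrast described below. Col1a2 and Col3a1 are abundant fibrillar chains that rose in cKO hearts, Col8a2 had the largest fold rise in RV, and Col6a6 fell. Each run is the 250 bases before the RefSeq start site, on the gene's own strand and in build GRCm38.p6. Capitals mark a match, on either strand, to the TATA box TATAAA, the CAAT box CCAAT, the GC box GGGCGG, the SMAD element CAGACA, the AP-1 element TGANTCA or the TEAD element CATTCC. These motifs share no bases with each other where they match in the windows shown.
Col1a2, chr6:4505368-4505617, plus strand: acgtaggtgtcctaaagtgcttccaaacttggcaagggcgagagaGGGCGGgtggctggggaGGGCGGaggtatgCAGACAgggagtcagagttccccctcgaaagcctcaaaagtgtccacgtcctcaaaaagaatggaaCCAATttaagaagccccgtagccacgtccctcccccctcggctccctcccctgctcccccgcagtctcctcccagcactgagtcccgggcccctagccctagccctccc
Col3a1, chr1:45311288-45311537, plus strand: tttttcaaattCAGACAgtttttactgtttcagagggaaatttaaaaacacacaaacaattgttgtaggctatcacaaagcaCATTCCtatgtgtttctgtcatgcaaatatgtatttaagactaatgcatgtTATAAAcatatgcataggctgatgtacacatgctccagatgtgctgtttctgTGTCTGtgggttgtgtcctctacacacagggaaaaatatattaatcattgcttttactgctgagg
Col8a2, chr4:126286544-126286793, plus strand: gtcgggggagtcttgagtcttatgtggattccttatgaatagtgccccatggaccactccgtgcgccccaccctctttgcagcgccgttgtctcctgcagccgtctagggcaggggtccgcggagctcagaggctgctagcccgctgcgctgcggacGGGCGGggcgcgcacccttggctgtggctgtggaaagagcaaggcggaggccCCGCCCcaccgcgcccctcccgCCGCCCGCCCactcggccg
Col6a6, chr9:105828086-105828335, minus strand: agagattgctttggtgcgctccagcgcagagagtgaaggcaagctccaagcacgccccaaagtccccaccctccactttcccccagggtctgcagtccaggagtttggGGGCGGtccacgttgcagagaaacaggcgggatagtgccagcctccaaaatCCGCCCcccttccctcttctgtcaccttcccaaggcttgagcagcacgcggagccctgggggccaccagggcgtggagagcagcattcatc
The Col3a1 window held TATAAA, a copy of CATTCC, 2 copies of CAGACA and no GC box, whereas the Col8a2 window held 4 copies of GGGCGG, 2 of which overlap, and no other match. Col1a2 had 2 copies of GGGCGG and a copy each of CAGACA and CCAAT, and Col6a6 had 2 copies of GGGCGG only. Of the 44 members 35 had such windows, 38 in all. GGGCGG stood in 57.9% of the 38 member windows and in 32.7% of all 32851 windows of the table. The shares in member and all windows were 13.2% and 12.4% for TATAAA, 34.2% and 33.8% for CCAAT, 23.7% and 17.1% for CAGACA, 2.6% and 6.7% for TGANTCA, and 10.5% and 12.6% for CATTCC. A match describes letters in a window and is not a binding site.

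Libraries held 19364764 to 39381176 expected counts, and transcripts of the mitochondrial genome took 15.0% to 23.2% of them in cKO RVs and 35.7% to 39.6% in WT RVs. Levels within a gene are therefore given as CPM, counts relative to the TMM-scaled library size, and levels between genes as TPM, which takes transcript length into account. Calls are genes whose adjusted p from edgeR's quasi-likelihood test was under 0.05, and fold changes are log2 values ± standard error (SE). Values below follow animal number, 177, 180, 257 and 264 for cKO, 181, 182, 252 and 253 for 3E13 LVs (181 and 253 for RVs), 250, 631 and 645 for 6E13, and 248, 626, 636, 637 and 647 for WT LVs (636, 637 and 647 for RVs). All cKO and 3E13 animals thus had numbers from 177 to 264, and all WT animals but 248 from 626 to 647. For cKO against WT in RV, number range and group cannot be told apart, and what the ranges stand for is not given. Pkp2 was at 15.1 to 24.4 TPM in cKO, 9.15 to 17.5 TPM in treated and 28.2 to 38.8 TPM in WT libraries, and human PKP2 at 51.6 to 198 TPM in treated libraries and 0 in all others, so no library went against its label. Some libraries stood apart. Within cKO, animal 180 had the lowest collagen in both ventricles, and 2 cKO RVs held atrial transcripts, with the atrial light chain Myl4 at 186 CPM in animal 180 and 165 CPM in animal 257, against 7.62 CPM in animal 177 and 1.78 CPM in animal 264. Low-count members were also filtered. In LV 38 members and in RV 41 were tested, Col2a1, Col6a4 and Col9a1 were tested in neither, and Col6a5, Col9a3 and Col19a1 in RV only.

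Collagen mRNA was higher in cKO than in WT hearts in total. The summed TPM of the 44 genes was 1479 ± 615 in cKO LVs, 435 ± 84.0 in 3E13 LVs, 369 ± 175 in 6E13 LVs and 181 ± 25.6 in WT LVs (SD, n = 4, 4, 3 and 5). In RV it was 2649 ± 1232 in cKO, 529 ± 108 in 3E13, 543 ± 338 in 6E13 and 141 ± 24.05 in WT (SD, n = 4, 2, 3 and 3). The lowest cKO library, animal 180, had 632 TPM in LV and 1240 TPM in RV, still above the highest WT libraries at 220.07 and 166 TPM. In these pieces of tissue, more collagen-making cells and more collagen mRNA per cell cannot be told apart.

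By mean TPM over the 28 libraries, to which cKO libraries contribute most, the members spanned several orders of magnitude. Col3a1, the type III chain, led at 276 TPM, followed by both chains of type I, Col1a1 at 109.8 and Col1a2 at 107 TPM. The basement membrane chains Col4a1 (57.2 TPM) and Col4a2 (47.0 TPM) came next, then Col15a1, a multiplexin chain of vessel basement membranes (43.7 TPM), Col6a2 (32.9 TPM), Col6a1 (28.3 TPM), Col8a1 (25.0 TPM), Col5a2 (21.4 TPM) and Col14a1 (20.01 TPM). In WT LVs alone the order differed, with Col4a1 at 15.8%, Col3a1 at 15.3%, Col4a2 at 14.0%, Col15a1 at 10.6%, Col1a2 at 7.94% and Col1a1 at 5.61% of collagen TPM. At the other end, Col9a1 and Col6a4 averaged 0.0020 and 0.0015 TPM. Col2a1, the cartilage fibril chain, had 0 counts in every WT library, which allows up to 3 counts per library, and averaged 0.108 CPM in cKO LVs and 0.176 CPM in cKO RVs, values about as low as that limit.

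In cKO LVs, 24 of 38 members tested were higher than in WT, 2 were lower and 12 were not called. In RV 28 of 41 were higher, 2 lower and 11 not called. Over all genes tested, 19.7% were called higher and 16.1% lower in LV, and 19.8% higher and 17.6% lower in RV. The median log2 fold change of the members was 1.40 in LV and 2.05 in RV, and 0.05 and 0.06 over all genes. All 24 that rose in LV also rose in RV of, for the most part, the same animals, which is 24 of the 28 that rose in RV, and the other 4 were Col4a3, Col4a4, Col4a6 and Col24a1. Leaving out any single library gave 22 to 25 calls in LV and 27 to 29 in RV, and leaving out the 2 cKO RVs with atrial transcripts gave 28.

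The change was summarized by class. The median log2 fold change of tested members in LV was 3.36 for network, 2.96 for fibrillar, 2.75 for FACIT, 1.40 for beaded filament, 1.11 for multiplexin, 0.99 for basement membrane and 0.04 for transmembrane chains. In RV the medians were 4.20 for network, 4.33 for fibrillar, 2.63 for FACIT, 2.57 for beaded filament, 1.91 for multiplexin, 1.83 for basement membrane and -0.82 for transmembrane chains. Members called higher in LV were 8 of 10 tested fibrillar, 4 of 6 FACIT, 2 of 3 network, 3 of 4 beaded filament, 2 of 2 multiplexin, 3 of 6 basement membrane and 1 of 4 transmembrane genes. In RV they were 9 of 10 fibrillar, 4 of 8 FACIT, 2 of 3 network, 3 of 5 beaded filament, 2 of 2 multiplexin, 6 of 6 basement membrane and 1 of 4 transmembrane genes. The order of the classes is a description, and differences between class medians were not tested.

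**Figure D1:**
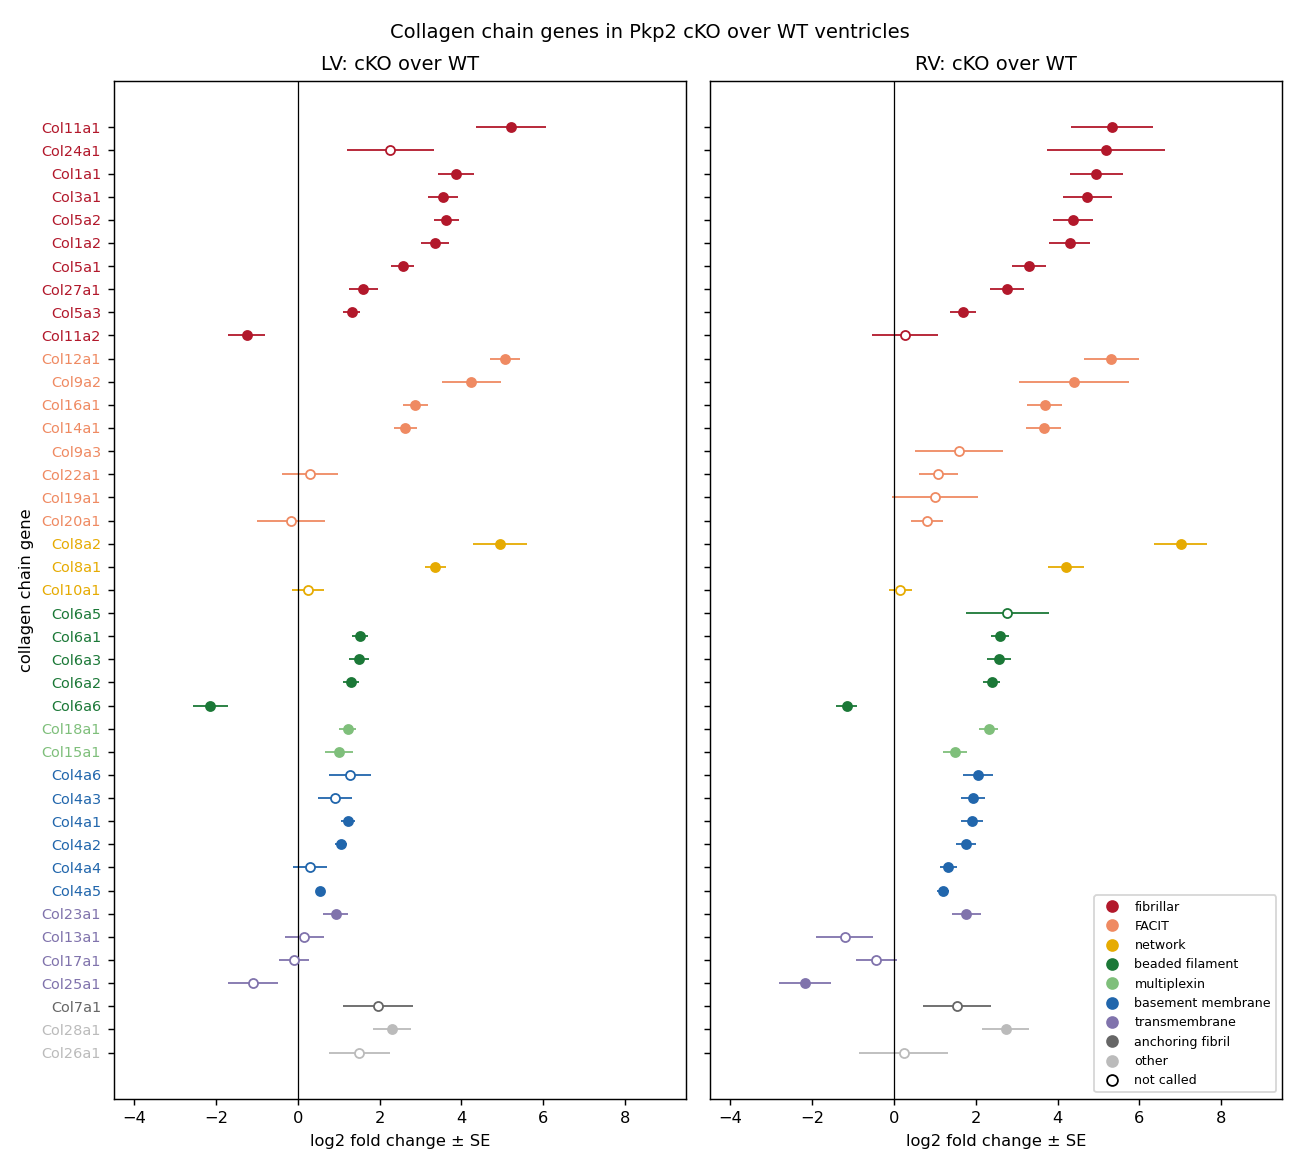
Log2 fold changes (horizontal axis, ± SE) of tested collagen chain genes (vertical axis, colored by class) in cKO over WT, left panel LV and right panel RV; filled points were called. Most fibrillar, network and FACIT points lie right of the basement membrane points, and Col6a6 lies left of 0 in both ventricles (-2.14 in LV and -1.16 in RV).

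Of the fibrillar chains, Col3a1, whose type III fibers run alongside those of type I, had 1794, 639, 1609 and 2373 CPM in cKO LVs, 545, 723, 408 and 350.4 CPM in 3E13 LVs, 631, 328 and 217 CPM in 6E13 LVs and 126, 112, 166, 128 and 155 CPM in WT LVs. In RV Col3a1 had 3881, 1532, 1838 and 5668 CPM in cKO RVs, 704 and 866 CPM in 3E13 RVs, 1332, 683 and 306 CPM in 6E13 RVs and 137, 123 and 105 CPM in WT RVs. Every cKO library lay above every WT library in both ventricles, as did every treated library, and in RV all cKO libraries also lay above the treated ones. The log2 fold change of cKO over WT was 3.54 ± 0.36 in LV (adjusted p = 8.7e-06) and 4.73 ± 0.60 in RV (adjusted p = 1.3e-04).

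Col1a1, the α1 chain of type I, the main load-bearing collagen of scars, had 1333, 321, 977 and 1525 CPM in cKO LVs, 304, 433, 220.2 and 168 CPM in 3E13 LVs, 379, 169 and 112 CPM in 6E13 LVs and 67.00, 57.3, 85.5, 70.9 and 75.2 CPM in WT LVs. In RV Col1a1 had 2225, 836, 1171 and 2685 CPM in cKO RVs, 238 and 297 CPM in 3E13 RVs, 792, 296 and 127 CPM in 6E13 RVs and 61.4, 61.8 and 44.6 CPM in WT RVs. All cKO and treated libraries exceeded WT, and in LV the lowest cKO library, animal 180, lay within the range of both treated groups. It rose by 3.87 ± 0.43 in cKO LVs (adjusted p = 1.8e-05) and 4.95 ± 0.65 in cKO RVs (adjusted p = 1.6e-04). Its partner Col1a2, the α2 chain of type I, had 831, 338, 735 and 1129.7 CPM in cKO LVs, 264, 279, 181 and 152 CPM in 3E13 LVs, 285, 165 and 103 CPM in 6E13 LVs and 60.7, 60.4, 93.7, 73.8 and 82.8 CPM in WT LVs. In RV Col1a2 had 1595, 786, 941 and 2078 CPM in cKO RVs, 305 and 338 CPM in 3E13 RVs, 583, 278 and 136 CPM in 6E13 RVs and 72.2, 75.4 and 59.2 CPM in WT RVs. Here no cKO library overlapped any treated or WT library in either ventricle, and the change was 3.35 ± 0.34 in LV (adjusted p = 7.7e-06) and 4.29 ± 0.51 in RV (adjusted p = 9.1e-05).

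Type V chains, which seed fibers and set their width, were all higher in cKO hearts. Col5a2 had 233, 112, 238 and 299.9 CPM in cKO LVs, 66.6, 98.9, 52.8 and 40.5 CPM in 3E13 LVs, 60.1, 43.7 and 27.3 CPM in 6E13 LVs and 15.3, 16.02, 20.9, 20.6 and 16.3 CPM in WT LVs. In RV Col5a2 had 390.2, 232, 256 and 466 CPM in cKO RVs, 74.5 and 89.3 CPM in 3E13 RVs, 136, 69.1 and 31.01 CPM in 6E13 RVs and 19.4, 17.96 and 11.3 CPM in WT RVs. The cKO libraries were the highest in both ventricles and the WT libraries the lowest, without overlap. Col5a2 rose by 3.63 ± 0.31 in cKO LVs (adjusted p = 2.0e-06) and 4.37 ± 0.49 in cKO RVs (adjusted p = 6.4e-05), Col5a1 by 2.57 ± 0.29 and 3.31 ± 0.42, and Col5a3 by 1.32 ± 0.20 and 1.70 ± 0.32, with adjusted p at most 0.00144 for Col5a1 and Col5a3.

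Among scarce fibrillar chains, Col11a1, a type XI chain of the fiber core in cartilage, had 2.63, 1.96, 1.44 and 4.25 CPM in cKO LVs, 0.495, 0, 0.162 and 0.175 CPM in 3E13 LVs, 0.306, 0.0438 and 0.227 CPM in 6E13 LVs and 0, 0.123, 0.138, 0 and 0.0381 CPM in WT LVs. In RV Col11a1 had 7.93, 1.85, 1.42 and 4.17 CPM in cKO RVs, 0.199 and 0.42 CPM in 3E13 RVs, 0.921, 0.368 and 0.0442 CPM in 6E13 RVs and 0.0984, 0.136 and 0.0412 CPM in WT RVs. WT and treated hearts were close to 0 and the cKO libraries all lay above them, so its log2 fold changes of 5.21 ± 0.85 in LV (adjusted p = 3.2e-04) and 5.33 ± 1.00 in RV (adjusted p = 0.00153) rest on few counts in WT. Its partner Col11a2 had 0.504, 0.472, 0.18 and 0.72 CPM in cKO LVs, 0.619, 0.158, 0.81 and 0.437 CPM in 3E13 LVs, 1.45, 0.744 and 0.954 CPM in 6E13 LVs and 1.09, 1.35, 0.688, 1.08 and 1.41 CPM in WT LVs. The cKO and WT values touched, at 0.720 and 0.688 CPM. The call of a fall in LV (-1.25 ± 0.46, adjusted p = 0.0453) was lost without cKO 177, 180 or 257 or WT 248, 626, 637 or 647, where adjusted p ran from 0.0651 to 0.105, and in RV Col11a2 was at 0.27 ± 0.80 (adjusted p = 0.824). Col27a1, a fibrillar chain of developing cartilage, rose by 1.61 ± 0.36 in LV and 2.77 ± 0.42 in RV, and Col24a1 was called in RV only, where the 3 WT libraries held 1 count in all (adjusted p = 0.0143, and 0.114 in LV). That call was lost without WT 647 (adjusted p = 0.0558) and on log2(TPM + 1) by limma (0.0703).

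FACIT chains of the fiber surface included some of the largest changes. Col12a1, which links fibers to the surrounding matrix in tissue under tension, had 46.8, 30.04, 49.1 and 99.5 CPM in cKO LVs, 19.2, 23.1, 15.4 and 14.2 CPM in 3E13 LVs, 11.4, 9.85 and 3.86 CPM in 6E13 LVs and 1.28, 1.52, 2.04, 1.62 and 1.83 CPM in WT LVs. In RV Col12a1 had 75.5, 49.9, 45.6 and 72.5 CPM in cKO RVs, 17.2 and 27.6 CPM in 3E13 RVs, 37.2, 9.103 and 5.17 CPM in 6E13 RVs and 2.07, 1.36 and 1.19 CPM in WT RVs. In LV the groups formed separate ranges, with cKO highest, then 3E13, 6E13 and WT, while in RV 6E13 animal 250 exceeded both 3E13 libraries. Col12a1 rose by 5.07 ± 0.37 in cKO LVs (adjusted p = 8.3e-07) and 5.31 ± 0.68 in cKO RVs (adjusted p = 1.3e-04).

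Col14a1, another fiber-surface chain and the most abundant FACIT by TPM, had 90.5, 114, 177 and 173 CPM in cKO LVs, 75.2, 52.6, 82.3 and 86.8 CPM in 3E13 LVs, 57.5, 33.3 and 56.4 CPM in 6E13 LVs and 25.1, 24.9, 15.8, 12.9 and 33.1 CPM in WT LVs. In RV Col14a1 had 322, 240.5, 217 and 388 CPM in cKO RVs, 135 and 222 CPM in 3E13 RVs, 114, 67.1 and 80.5 CPM in 6E13 RVs and 12.2, 16.4 and 40.4 CPM in WT RVs. Every cKO library exceeded every WT library, and in RV the 3E13 library of animal 253 reached the cKO range. It rose by 2.63 ± 0.28 in LV (adjusted p = 1.2e-05) and 3.66 ± 0.43 in RV (adjusted p = 8.4e-05). Col16a1, a FACIT chain that fibroblasts and smooth muscle make, had 20.5, 10.99, 25.7 and 32.8 CPM in cKO LVs, 10.9, 9.68, 8.997 and 6.34 CPM in 3E13 LVs, 8.56, 4.77 and 4.18 CPM in 6E13 LVs and 2.69, 2.21, 2.92, 4.05 and 3.43 CPM in WT LVs. In RV Col16a1 had 43.4, 27.9, 29.3 and 50.98 CPM in cKO RVs, 7.85 and 13.4 CPM in 3E13 RVs, 14.5, 7.19 and 5.301 CPM in 6E13 RVs and 3.79, 3.21 and 1.89 CPM in WT RVs. No cKO library overlapped another group, and the rise was 2.88 ± 0.30 in LV (adjusted p = 9.7e-06) and 3.68 ± 0.42 in RV (adjusted p = 7.2e-05). Col9a2, a cartilage FACIT, rose by 4.24 ± 0.72 in LV and 4.40 ± 1.35 in RV, with no more than 3 counts in any WT library, and its RV call was lost without cKO 177 or WT 636 or 637 (adjusted p 0.0539 to 0.0773). Col20a1 and Col22a1 were not called in either ventricle, nor were Col9a3 and Col19a1 in RV.

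Of the network chains, Col8a1, the α1 chain of type VIII, had 180.2, 165, 228 and 342 CPM in cKO LVs, 87.9, 84.5, 66.2 and 55.6 CPM in 3E13 LVs, 56.6, 58.9 and 27.5 CPM in 6E13 LVs and 17.4, 19.8, 28.6, 22.5 and 22.7 CPM in WT LVs. In RV Col8a1 had 334, 253, 288 and 437 CPM in cKO RVs, 98.96 and 103 CPM in 3E13 RVs, 128, 76.03 and 34.5 CPM in 6E13 RVs and 23.96, 18.1 and 11.4 CPM in WT RVs. All cKO libraries stood above every other library, by a wide gap in LV, where the lowest cKO value was 165 CPM and the highest treated value 87.9 CPM. Col8a1 rose by 3.36 ± 0.26 in LV (adjusted p = 9.5e-07) and 4.20 ± 0.44 in RV (adjusted p = 4.2e-05). Its partner Col8a2, the α2 chain, had 4.26, 5.97, 24.4 and 11.02 CPM in cKO LVs, 9.37, 2.26, 7.902 and 5.72 CPM in 3E13 LVs, 2.001, 2.84 and 1.32 CPM in 6E13 LVs and 0.662, 0.574, 0.303, 0 and 0.305 CPM in WT LVs. In RV Col8a2 had 32.7, 14.3, 23.2 and 17.9 CPM in cKO RVs, 7.22 and 13.4 CPM in 3E13 RVs, 5.27, 4.13 and 2.21 CPM in 6E13 RVs and 0.344, 0 and 0.165 CPM in WT RVs. WT hearts had hardly any Col8a2, with 0 counts in animal 637 in each ventricle, and in LV cKO and 3E13 overlapped. The fold change was 4.95 ± 0.67 in LV (adjusted p = 7.6e-05) and 7.01 ± 0.65 in RV (adjusted p = 2.1e-05), the largest of any member there. Col10a1, the network chain of growing cartilage, stayed between 0.540 and 3.71 CPM in all libraries and was not called (0.24 ± 0.39 in LV and 0.15 ± 0.28 in RV). Its gene overlaps Nt5dc1 on the opposite strand.

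**Figure D2:**
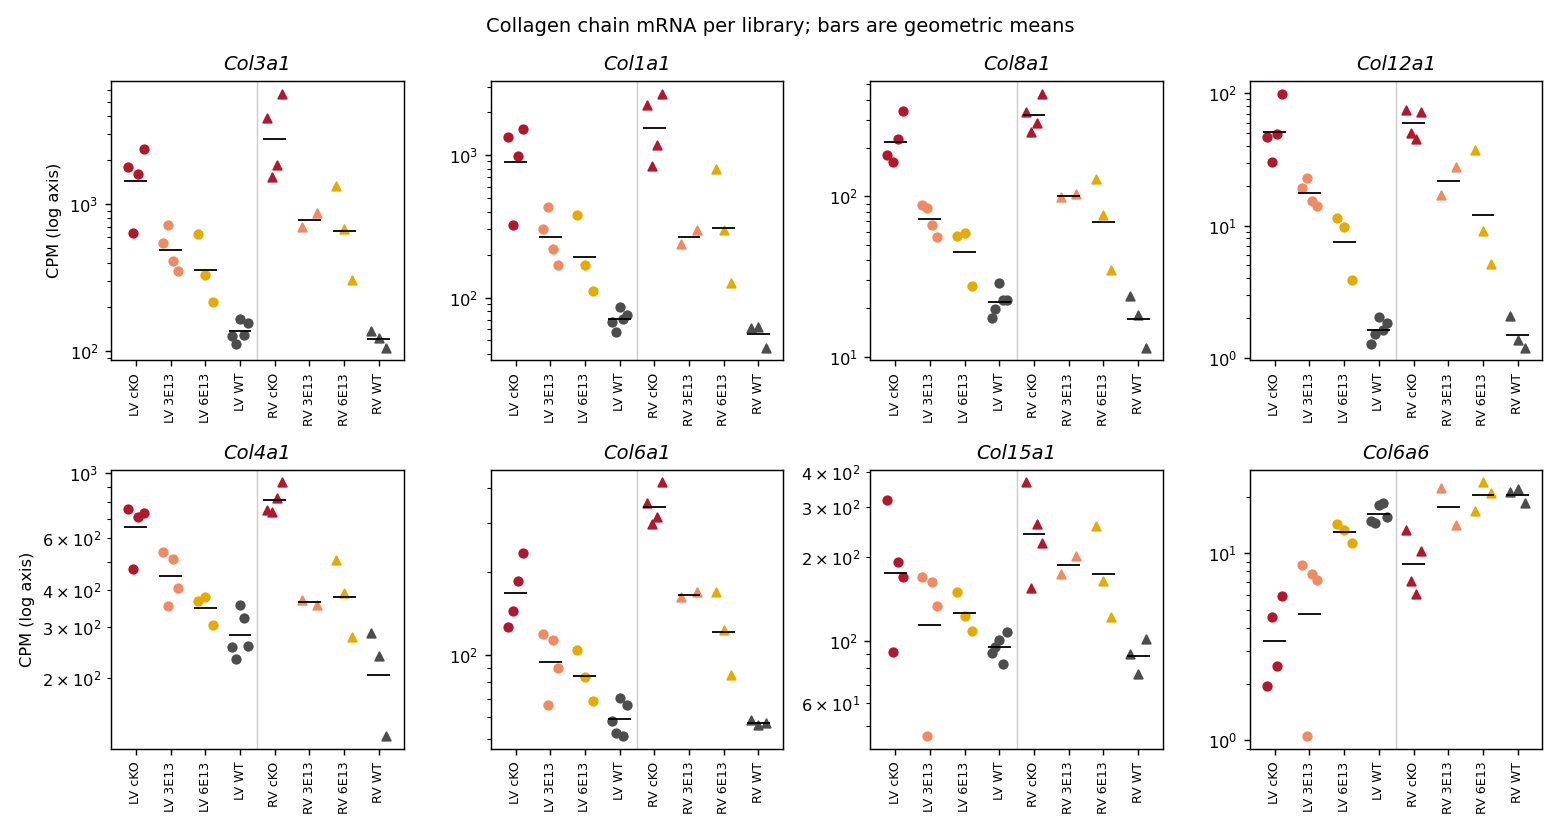
CPM on a log axis (vertical) of 8 collagen chain genes in each library, by ventricle and group (horizontal); dots are LVs, triangles RVs and bars geometric means. Col3a1, Col1a1, Col8a1 and Col12a1 were lowest in WT and highest in cKO, Col4a1 and Col15a1 spanned narrower ranges, and Col6a6 ran the other way, with 1.96 to 5.89 CPM in cKO LVs against 14.6 to 18.6 CPM in WT LVs.

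Among basement membrane chains, Col4a1, with Col4a2 the main type IV chain of capillaries and cardiomyocytes, had 757, 472, 709 and 731 CPM in cKO LVs, 538, 354, 509 and 406 CPM in 3E13 LVs, 367, 377 and 304 CPM in 6E13 LVs and 256, 233, 354, 322 and 257 CPM in WT LVs. In RV Col4a1 had 751, 739.7, 826 and 932 CPM in cKO RVs, 370.03 and 356 CPM in 3E13 RVs, 504, 390.5 and 277 CPM in 6E13 RVs and 285, 239 and 127 CPM in WT RVs. The cKO range lay above WT in both ventricles and above the treated groups in RV, but animal 180 overlapped 3E13 in LV. Col4a1 rose by 1.23 ± 0.17 in LV (adjusted p = 9.1e-05) and 1.91 ± 0.27 in RV (adjusted p = 2.7e-04). Col4a2, which joins 2 Col4a1 chains in a helix, had 621, 433, 566 and 585 CPM in cKO LVs, 485, 385, 462 and 352 CPM in 3E13 LVs, 331, 319 and 279 CPM in 6E13 LVs and 234, 222, 321, 311 and 238 CPM in WT LVs. In RV Col4a2 had 616, 660.4, 655 and 735 CPM in cKO RVs, 302 and 283 CPM in 3E13 RVs, 430.4, 339 and 240.2 CPM in 6E13 RVs and 239, 231 and 122 CPM in WT RVs. Its groups lay in the same way, with cKO above WT in both ventricles and overlap with 3E13 in LV only, and the rise was 1.05 ± 0.15 in LV (adjusted p = 8.8e-05) and 1.76 ± 0.25 in RV (adjusted p = 2.5e-04).

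The minor type IV chains form the stronger networks known from kidney and lens. Col4a5 rose by 0.55 ± 0.11 in LV (adjusted p = 0.00131) and 1.20 ± 0.15 in RV (adjusted p = 1.3e-04). Col4a3, Col4a4 and Col4a6 were called in RV only, at 1.93 ± 0.30, 1.33 ± 0.21 and 2.05 ± 0.36 (adjusted p at most 0.00106), and stood at 0.92 ± 0.41, 0.30 ± 0.42 and 1.28 ± 0.51 in LV (adjusted p at least 0.0622). In LV they varied strongly within cKO. Col4a4 was at 3.22, 24.5, 18.4 and 20.02 CPM in cKO LVs, against 11.96, 10.4, 16.2, 15.9 and 12.7 CPM in WT LVs, and Col4a3 at 1.71, 16.1, 9.66 and 10.5 CPM in cKO LVs, against 3.97, 4.59, 5.89, 5.04 and 5.53 CPM in WT LVs. For each of them animal 177 was below WT and the other 3 cKO animals were above it, while the RV of animal 177 was not low (37.8 CPM of Col4a4). Col4a6 had 0.812, 4.86, 3.51 and 3.304 CPM in cKO LVs, 1.77, 0.421, 2.11 and 1.49 CPM in 3E13 LVs, 2.42, 0.963 and 1.09 CPM in 6E13 LVs and 0.662, 1.64, 1.93, 0.81 and 1.33 CPM in WT LVs. In RV Col4a6 had 6.902, 9.91, 6.86 and 9.46 CPM in cKO RVs, 2.71 and 5.63 CPM in 3E13 RVs, 3.56, 1.36 and 2.21 CPM in 6E13 RVs and 2.02, 1.58 and 2.39 CPM in WT RVs. Its cKO LV value was again lowest in animal 177.

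Type VI chains split. Col6a1, Col6a2 and Col6a3 assemble together into the beaded filament. Col6a1 had 126, 145, 184 and 233 CPM in cKO LVs, 119, 66.2, 114 and 89.8 CPM in 3E13 LVs, 104, 83.5 and 68.5 CPM in 6E13 LVs and 58.2, 52.4, 70.3, 51.2 and 66.1 CPM in WT LVs. In RV Col6a1 had 353, 295, 313 and 418 CPM in cKO RVs, 162 and 169 CPM in 3E13 RVs, 169, 123 and 84.9 CPM in 6E13 RVs and 58.6, 56.2 and 57.1 CPM in WT RVs. Col6a2 had 166, 149, 203 and 262 CPM in cKO LVs, 153, 80.2, 152 and 116 CPM in 3E13 LVs, 139, 103 and 94.05 CPM in 6E13 LVs and 77.3, 76.1, 82.9, 74.3 and 83.7 CPM in WT LVs, and in RV 394, 298.7, 328 and 443 CPM in cKO RVs, 198 and 199 CPM in 3E13 RVs, 214, 142 and 114 CPM in 6E13 RVs and 70.4, 70.5 and 69.1 CPM in WT RVs. Col6a3 had 276, 119.8, 185 and 232 CPM in cKO LVs, 117, 55.9, 119 and 97.8 CPM in 3E13 LVs, 139, 97.8 and 73.4 CPM in 6E13 LVs and 71.3, 75.8, 71.8, 65.1 and 77.1 CPM in WT LVs, and in RV 414, 232, 297 and 389.9 CPM in cKO RVs, 166 and 185 CPM in 3E13 RVs, 234, 139.97 and 102 CPM in 6E13 RVs and 57.4, 47.3 and 64.00 CPM in WT RVs. For all of them, all cKO libraries exceeded all WT libraries. Among treated hearts, 3E13 animals 181 and 252 reached the cKO range of Col6a2 in LV, and 6E13 animal 250 reached that of Col6a3 in both ventricles. Col6a1 rose by 1.53 ± 0.20 in LV and 2.59 ± 0.21 in RV, Col6a2 by 1.31 ± 0.19 and 2.39 ± 0.21, and Col6a3 by 1.49 ± 0.24 and 2.57 ± 0.29, with adjusted p at most 3.3e-04 for all of them.

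Col6a6, a longer type VI chain related to Col6a3, was the exception. It had 1.96, 4.55, 2.49 and 5.89 CPM in cKO LVs, 8.67, 1.05, 7.78 and 7.17 CPM in 3E13 LVs, 14.3, 13.3 and 11.3 CPM in 6E13 LVs and 14.8, 14.6, 18.2, 18.6 and 15.7 CPM in WT LVs. In RV Col6a6 had 13.4, 7.15, 6.09 and 10.3 CPM in cKO RVs, 22.4 and 14.1 CPM in 3E13 RVs, 16.9, 23.9 and 21.1 CPM in 6E13 RVs and 21.3, 21.99 and 18.7 CPM in WT RVs. All cKO libraries were below all WT and all 6E13 libraries in both ventricles, and the 3E13 LV of animal 182 was lower still. The change in cKO was -2.14 ± 0.44 in LV (adjusted p = 0.00154) and -1.16 ± 0.26 in RV (adjusted p = 0.00402), and on log2(TPM + 1) the RV call was lost (-0.21, adjusted p = 0.394). The gene overlaps Pik3r4 on the opposite strand. Col6a5 and Col6a4, its neighbours on chromosome 9, were at most 3.67 and 0.116 CPM in any library, and Col6a5 was not called in RV (2.77 ± 1.02, adjusted p = 0.0511).

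Multiplexin chains, which carry glycosaminoglycans in basement membranes, were both called higher. Col15a1 had 319, 91.2, 192 and 169 CPM in cKO LVs, 169, 45.8, 163 and 133 CPM in 3E13 LVs, 149.9, 123 and 109 CPM in 6E13 LVs and 90.9, 95.7, 101, 83.1 and 108 CPM in WT LVs. In RV Col15a1 had 368, 155, 261 and 223 CPM in cKO RVs, 174 and 202 CPM in 3E13 RVs, 258, 164 and 122 CPM in 6E13 RVs and 89.7, 76.1 and 101 CPM in WT RVs. In LV cKO overlapped WT through animal 180, and in RV it did not. The LV rise of 1.01 ± 0.33 (adjusted p = 0.0272) was lost without cKO 177 (0.65, adjusted p = 0.132) and without WT 248, 626 or 637 (adjusted p 0.0501 to 0.0589), and in RV it was 1.498 ± 0.30 (adjusted p = 0.0021). Col18a1, the precursor of endostatin, had 33.6, 14.3, 18.3 and 21.5 CPM in cKO LVs, 12.1, 7.68, 12.4 and 10.1 CPM in 3E13 LVs, 11.4, 10.7 and 11.3 CPM in 6E13 LVs and 10.5, 7.99, 9.14, 8.91 and 10.5 CPM in WT LVs. In RV Col18a1 had 48.2, 31.6, 27.9 and 32.8 CPM in cKO RVs, 12.6 and 13.2 CPM in 3E13 RVs, 18.7, 14.6 and 12.5 CPM in 6E13 RVs and 8.71, 5.79 and 6.71 CPM in WT RVs. All cKO libraries exceeded all others, and it rose by 1.22 ± 0.20 in LV (adjusted p = 4.0e-04) and 2.31 ± 0.23 in RV (adjusted p = 3.1e-05). Its gene overlaps Slc19a1 on the opposite strand.

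Transmembrane chains did not move together. Col23a1 had 2.58, 3.27, 3.03 and 6.93 CPM in cKO LVs, 1.07, 2.21, 1.86 and 2.49 CPM in 3E13 LVs, 1.11, 1.84 and 1.59 CPM in 6E13 LVs and 1.75, 1.803, 1.87, 2.47 and 2.48 CPM in WT LVs. In RV Col23a1 had 7.17, 6.68, 5.02 and 11.01 CPM in cKO RVs, 3.55 and 3.74 CPM in 3E13 RVs, 2.45, 2.36 and 3.14 CPM in 6E13 RVs and 1.13, 3.12 and 2.31 CPM in WT RVs. The cKO values were above all WT values, by little in LV, where animal 264 was the highest. The LV rise of 0.93 ± 0.31 (adjusted p = 0.0288) was lost without cKO 264 (0.50, adjusted p = 0.181) or WT 248, 626 or 636 (0.0605 to 0.0634), and the RV rise was 1.77 ± 0.35 (adjusted p = 0.00214). Col25a1, a chain of neurons and muscle, had 0.112, 0.674, 0.15 and 0.491 CPM in cKO LVs, 0.743, 0.0526, 0.365 and 0.306 CPM in 3E13 LVs, 0.472, 0.394 and 0.999 CPM in 6E13 LVs and 0.946, 0.779, 0.661, 0.675 and 0.762 CPM in WT LVs. In RV Col25a1 had 0.0683, 0.172, 0.421 and 0.116 CPM in cKO RVs, 0.678 and 0.385 CPM in 3E13 RVs, 0.762, 0.442 and 0.442 CPM in 6E13 RVs and 1.23, 0.498 and 0.988 CPM in WT RVs. It was lower in each cKO RV than in every WT RV (-2.18 ± 0.64, adjusted p = 0.0187), but without WT 636 or 647 the call was lost (adjusted p = 0.0632 and 0.0502), and in LV it was not made (-1.10 ± 0.61, adjusted p = 0.177). Col13a1, a chain of cell adhesion sites and the neuromuscular junction, had 0.168, 1.38, 0.6 and 1.11 CPM in cKO LVs, 0.908, 0.789, 0.73 and 1.44 CPM in 3E13 LVs, 0.667, 0.569 and 0.727 CPM in 6E13 LVs and 0.567, 0.738, 1.13, 0.405 and 0.762 CPM in WT LVs. In RV Col13a1 had 0.307, 0.905, 0.259 and 0.541 CPM in cKO RVs, 0.718 and 0.385 CPM in 3E13 RVs, 0.508, 1.401 and 0.442 CPM in 6E13 RVs and 1.03, 2.13 and 0.33 CPM in WT RVs. Its groups overlapped in both ventricles. Neither it nor Col17a1, the chain of hemidesmosomes, was called in either ventricle.

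The remaining chains were scarce. Col28a1, a chain known from peripheral nerve, had 1.85, 1.75, 1.59 and 2.52 CPM in cKO LVs, 0.495, 0.999, 0.527 and 0.131 CPM in 3E13 LVs, 0.389, 0.525 and 0.999 CPM in 6E13 LVs and 0.615, 0.328, 0.248, 0.45 and 0.305 CPM in WT LVs. In RV Col28a1 had 3.31, 6.33, 4.08 and 5.14 CPM in cKO RVs, 1.04 and 1.12 CPM in 3E13 RVs, 0.604, 1.51 and 0.265 CPM in 6E13 RVs and 1.13, 0.679 and 0.33 CPM in WT RVs. Its cKO libraries exceeded all others in both ventricles, with rises of 2.31 ± 0.46 in LV (adjusted p = 0.00141) and 2.73 ± 0.57 in RV (adjusted p = 0.00283). Of 4 Schwann cell markers tested, 1 was called higher in LV and 3 in RV, against 19.7% and 19.8% of all genes, with summed levels of 18.1 to 23.4 CPM in cKO LVs, against 13.2 to 16.1 CPM in WT LVs, and 33.0 to 46.6 CPM in cKO RVs, against 20.7 to 24.2 CPM in WT RVs. Their part in the Col28a1 result was not tested. Col7a1, which anchors epithelia, had 0.476, 0.236, 0.6 and 1.73 CPM in cKO LVs, 0.33, 0.894, 0.243 and 0.0437 CPM in 3E13 LVs, 0.889, 0.0875 and 0.0908 CPM in 6E13 LVs and 0.189, 0.164, 0.413, 0.09 and 0.0762 CPM in WT LVs. In RV Col7a1 had 1.33, 0.732, 0.777 and 0.657 CPM in cKO RVs, 0.199 and 0.245 CPM in 3E13 RVs, 1.21, 0.221 and 0.265 CPM in 6E13 RVs and 0.0492, 0.679 and 0.165 CPM in WT RVs. It overlapped between groups and was not called in LV (adjusted p = 0.0827) or RV (adjusted p = 0.171). Col26a1, a short chain outside the large classes, had 0.42, 0.202, 0.18 and 1.24 CPM in cKO LVs, 0.0413, 0.0526, 0.365 and 0.35 CPM in 3E13 LVs, 0.334, 0.306 and 0.273 CPM in 6E13 LVs and 0.425, 0.205, 0.11, 0.045 and 0.114 CPM in WT LVs. In RV Col26a1 had 1.09, 0.215, 0.0648 and 0.154 CPM in cKO RVs, 0 and 0.105 CPM in 3E13 RVs, 0.826, 0.147 and 0.0884 CPM in 6E13 RVs and 0.344, 0.136 and 0.494 CPM in WT RVs. It overlapped between groups too, and was not called in either ventricle.

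Cell type markers are given beside the members. Of 10 activated fibroblast markers 9 were higher in cKO in each ventricle, and their summed level was 928 to 2280 CPM in cKO LVs, 419 to 689 in 3E13 LVs, 205 to 505 in 6E13 LVs and 114 to 146 in WT LVs, and 1440 to 2371 CPM in cKO RVs, 824 to 1124 in 3E13 RVs, 284 to 1224 in 6E13 RVs and 93.2 to 149 in WT RVs, with none at 0. Of 10 resting fibroblast markers 5 were higher in LV and 8 in RV. Their sums were 484 to 1369 CPM in cKO LVs and 506 to 604 CPM in WT LVs, and 1680 to 2576 CPM in cKO RVs and 655 to 756 CPM in WT RVs. Of 10 endothelial markers 3 were higher and 1 lower in LV and 1 higher and 1 lower in RV, with overlapping LV sums of 952 to 1490 CPM in cKO and 1067 to 1170 CPM in WT. Of 7 ventricular cardiomyocyte markers 4 were lower in LV and 7 in RV, with sums of 10598 to 26089 CPM in cKO LVs and 33402 to 36539 CPM in WT LVs, and 9655 to 23837 CPM in cKO RVs and 31124 to 40998 CPM in WT RVs. In each ventricle 7 of 8 macrophage markers were higher, with sums of 317 to 1114 CPM in cKO LVs and 147 to 185 CPM in WT LVs. Over all genes 19.7% in LV and 19.8% in RV were called higher, and 16.1% and 17.6% lower. Of cartilage and valve markers 1 of 3 tested was higher in LV, with overlapping sums of 5.29 to 23.1 CPM in cKO and 4.92 to 6.39 CPM in WT, and 4 of 4 in RV. The part of each cell type in the collagen results was not tested.

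The make-up of collagen mRNA by class was given by shares of TPM. Fibrillar chains took 65.5% of collagen TPM in cKO LVs (range 54.3% to 71.6%), 50.2% in 3E13 LVs (42.6% to 64.6%), 47.0% in 6E13 LVs (39.1% to 57.0%) and 34.2% in WT LVs (32.3% to 36.2%). In RV they took 68.8% in cKO (60.2% to 77.2%), 53.7% in 3E13 (52.0% to 55.4%), 55.2% in 6E13 (44.5% to 64.8%) and 34.1% in WT (32.8% to 35.7%). The ranges of cKO and WT did not overlap in either ventricle. The cKO range overlapped that of 3E13 in LV and that of 6E13 in LV and RV. Basement membrane chains took 13.8% in cKO LVs (10.2% to 19.2%), 23.3% in 3E13 LVs, 23.3% in 6E13 LVs and 32.6% in WT LVs (28.2% to 37.4%), and 10.8% in cKO RVs, 13.6% in 3E13 RVs, 17.0% in 6E13 RVs and 27.9% in WT RVs. Beaded filament chains took 8.25% in cKO LVs and 16.2% in WT LVs, and 9.23% in cKO RVs and 16.9% in WT RVs. Multiplexin chains took 4.62% in cKO LVs and 11.3% in WT LVs, and 3.66% in cKO RVs and 15.1% in WT RVs. Network chains took 4.13% in cKO LVs, against 2.23% in WT LVs, without overlap of the ranges (2.66% to 5.52% and 2.11% to 2.46%). FACIT chains took 3.47% in cKO LVs (1.93% to 4.99%), against 2.73% in WT LVs (1.53% to 3.65%), and 3.81% in cKO RVs (3.18% to 4.98%), against 3.16% in WT RVs (2.27% to 4.60%), with overlapping ranges in both ventricles. As shares of expected counts, which favor long transcripts, fibrillar chains were at 58.3% in cKO LVs and 26.8% in WT LVs.

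**Figure D3:**
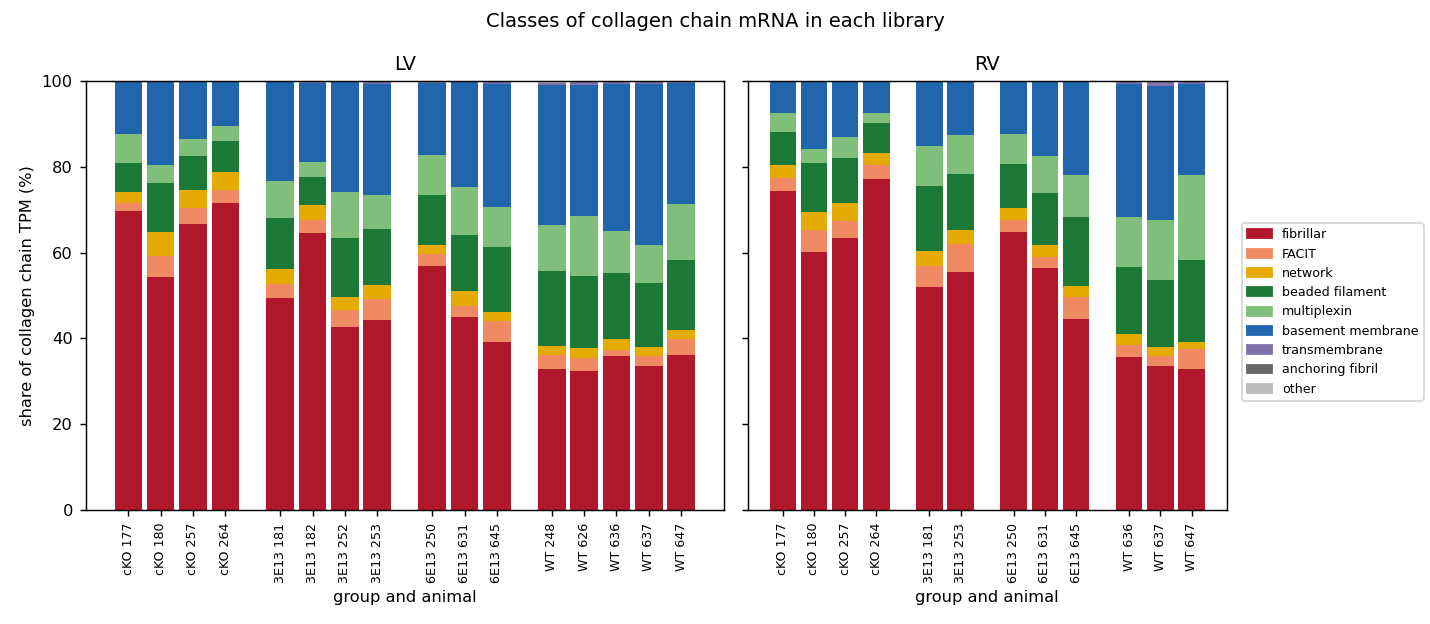
Share of summed collagen chain TPM (vertical axis, percent) taken by each class in every library (horizontal axis, group and animal), left panel LV and right panel RV. The fibrillar share was 54.3% to 71.6% in cKO LVs, against 32.3% to 36.2% in WT LVs. The basement membrane, beaded filament and multiplexin shares ran the other way.

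Ratios of chains within a library, which do not depend on library scaling, were compared for 8 pairs of genes by two-sided exact permutation tests, 48 tests in all. At an unadjusted p under 0.05 there were 12, and 0 after Benjamini-Hochberg adjustment, where the smallest adjusted p was 0.125. With these groups p could not go below 0.00794 for cKO against WT in LV and 0.0286 in RV, nor below 0.0667 for 3E13 against cKO in RV. With such limits and 48 tests, an adjusted p under 0.05 was nearly out of reach. The 0 therefore does not show that the ratios were unchanged. The ratio of Col5a1 to Col5a2 in TPM was 0.649, 0.487, 0.572 and 0.627 in cKO LVs, against 1.38, 1.099, 1.24, 0.887 and 1.39 in WT LVs. The 2 ranges did not overlap, with geometric means of 0.58 and 1.18 (exact permutation p = 0.00794, adjusted p = 0.125). In RV the means were 0.583 in cKO and 1.11 in WT (exact permutation p = 0.0286), and 6E13 lay at 0.91 in LV and 0.779 in RV. Col1a1 over Col1a2 was 1.02 in cKO LVs and 0.707 in WT LVs, and 1.01 in cKO RVs and 0.616 in WT RVs. The exact permutation p was 0.00794 in LV and 0.0286 in RV (adjusted p = 0.125). Col4a1 over Col1a1 was 0.51 in cKO LVs and 2.81 in WT LVs. Col3a1 over Col1a1 was 2.35 in cKO LVs and 2.72 in WT LVs (exact permutation p = 0.127).

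TN-401 at 3E13 was then set against vehicle in Pkp2-cKO hearts. Fibrillar chains led the falls in LV, where 13 of 38 members were lower, 0 higher and 25 not called, against 6.25% of all genes lower and 5.52% higher. By class these were 6 fibrillar, 2 FACIT, 2 beaded filament, 1 network, 1 multiplexin and 0 of 6 basement membrane genes, with Col28a1. Col11a1 (-3.57 ± 0.83), Col1a1 (-1.88 ± 0.44) and Col28a1 (-1.84 ± 0.49) fell most among the called members, with Col3a1 at -1.66 ± 0.37, and Col4a1 was at -0.56 ± 0.18 (adjusted p = 0.0541). In RV, with 2 libraries at 3E13, again 13 of 41 were lower and 0 higher, against 3.83% and 4.77% of all genes. There 4 of the 6 basement membrane genes were among them, Col4a1 (-1.16 ± 0.30), Col4a2, Col4a4 and Col4a5 (-0.91 ± 0.17), and the largest changes among called members were those of Col1a1 (-2.69 ± 0.68), Col1a2 (-2.07 ± 0.54) and Col5a2 (-2.04 ± 0.51). The LV count was 20 without cKO 180 and 7 without 3E13 253. The RV count was 7 without cKO 177, 4 without cKO 264 and 0 without either 3E13 library, so it rests on both.

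At 6E13, members of every large class were lower than in cKO. In LV 19 of 38 were lower than in cKO and 1, Col6a6, was higher, against 8.16% of all genes lower and 8.65% higher. In RV 25 of 41 were lower and again Col6a6 alone was higher, against 10.9% and 11.2% of all genes. The lower members in LV were 7 fibrillar, 3 FACIT, 2 network, 3 beaded filament, 2 basement membrane, 1 multiplexin and 1 transmembrane gene. In RV they were 8 fibrillar, 3 FACIT, 2 network, 3 beaded filament and 6 basement membrane genes, with Col18a1, Col23a1 and Col28a1. Class medians in LV were -2.26 for network, -2.04 for fibrillar, -1.501 for FACIT, -0.89 for beaded filament and -0.72 for basement membrane chains, and in RV -2.04, -1.83, -1.29, -1.22 and -1.02, while the median over all genes was -0.04 in each. Without 6E13 645 the LV count was 11, and without 6E13 631 or 645 the RV count was 16.

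By gene, Col11a1 fell most at 6E13 in both ventricles (-3.67 ± 0.94 in LV, adjusted p = 0.0164; -3.06 ± 0.83 in RV, adjusted p = 0.021). Col28a1 fell in RV (-2.56 ± 0.56). Col12a1 was at -2.74 ± 0.40 and -1.82 ± 0.54, and Col8a2 at -2.47 ± 0.70 and -2.50 ± 0.45. Col3a1 was at -2.03 ± 0.42 in LV (adjusted p = 0.00527) and -2.06 ± 0.52 in RV (adjusted p = 0.0161). Col6a6 rose by 1.81 ± 0.47 in LV (adjusted p = 0.0173) and 1.16 ± 0.26 in RV (adjusted p = 0.00804). Of the members that had been called higher in cKO hearts, Col15a1 and Col9a2 were not called at 6E13 in either ventricle (Col15a1 -0.60 ± 0.38 and -0.47 ± 0.29), nor were Col27a1, Col28a1 and Col4a5 in LV and Col24a1 in RV.

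**Figure D4:**
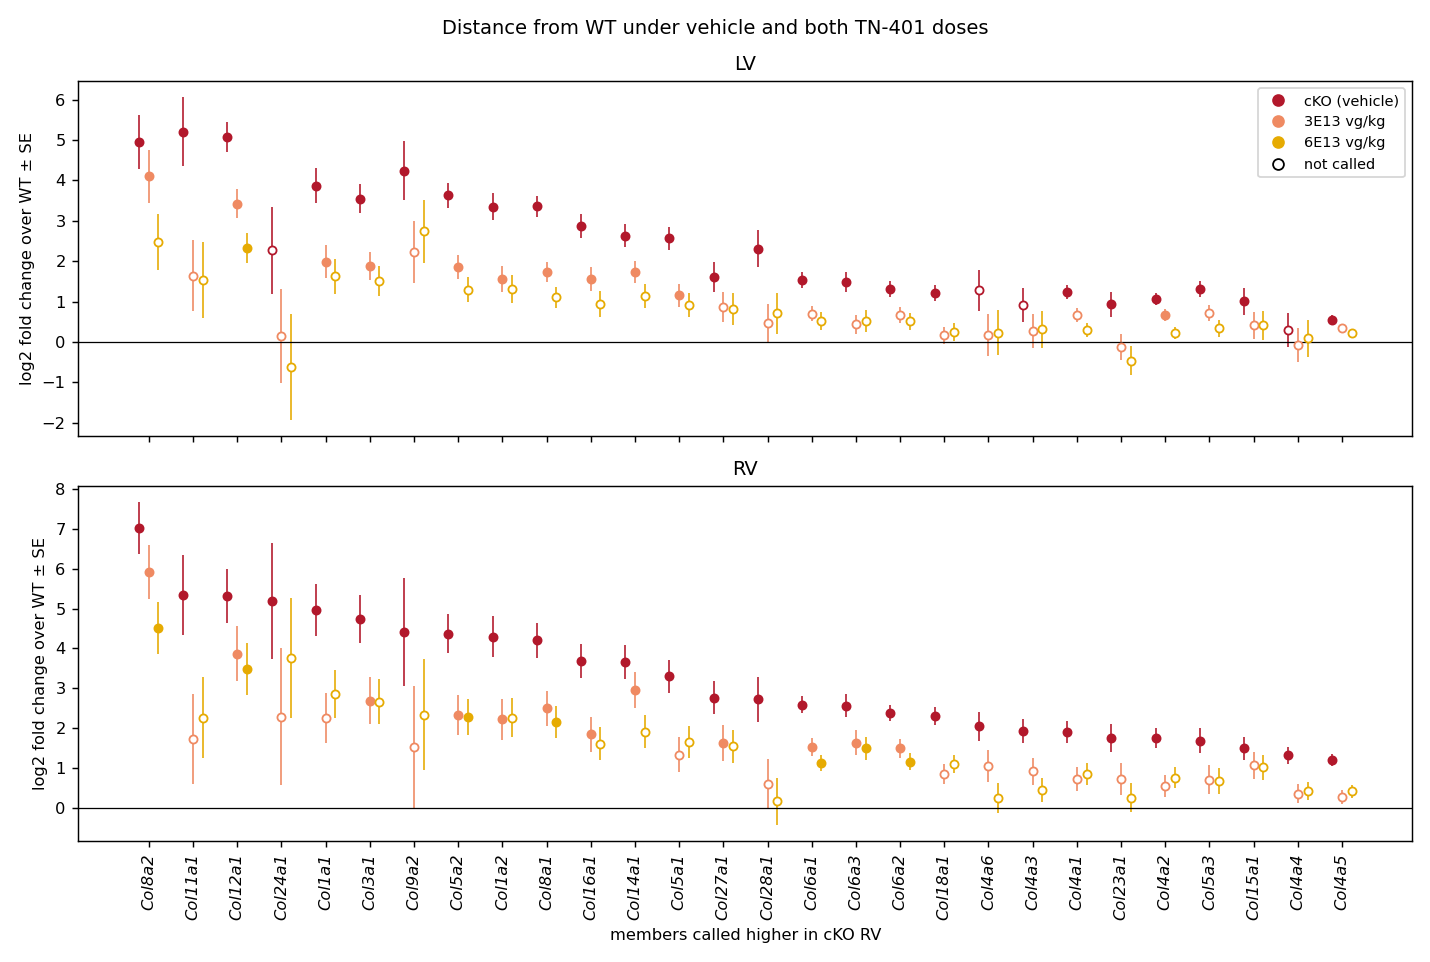
Log2 fold change over WT (vertical axis, ± SE) in cKO given vehicle and at 3E13 and 6E13, for the 28 members called higher in cKO RVs (horizontal axis), LV above and RV below; filled points were called. The 3 contrasts share their WT libraries. At 6E13 the filled points are Col12a1 in LV and 7 genes in RV.

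Treated hearts were also set against WT. These comparisons share the treated libraries with those against cKO, and the WT libraries with that of cKO against WT. At 3E13, 11 of 38 members were higher than WT in LV and 12 of 41 in RV, against 1.97% and 5.8% of all genes. In LV these were led by Col8a2 (4.10 ± 0.66), Col12a1 (3.42 ± 0.35) and Col1a1 (1.98 ± 0.41), with Col3a1 at 1.88 ± 0.35 (adjusted p = 0.00989), and in RV by Col8a2 (5.92 ± 0.67), Col12a1 (3.87 ± 0.69) and Col14a1 (2.95 ± 0.45). The RV list also held Col6a1, Col6a2 and Col6a3. At 6E13, only Col12a1 was called in LV (2.33 ± 0.37, adjusted p = 0.0339), against 0.0792% of all genes. In RV 7 were called, against 0.849%: Col8a2 (4.51 ± 0.66), Col12a1 (3.49 ± 0.65), Col5a2 (2.28 ± 0.46), Col8a1 (2.16 ± 0.41), Col6a3 (1.497 ± 0.29), Col6a2 (1.16 ± 0.21) and Col6a1 (1.13 ± 0.21). The abundant Col3a1 missed the threshold in LV (1.51 ± 0.36, adjusted p = 0.227) and RV (2.67 ± 0.56, adjusted p = 0.0514), although every 6E13 library lay above every WT library. At 6E13 against WT, 13 of 38 members in LV and 21 of 41 in RV had an unadjusted edgeR p under 0.05. Over all genes these were 1025 of 16410 and 2098 of 17307. The median log2 fold change of all members was 0.51 in LV and 0.88 in RV, against 0.0055 and 0.0022 over all genes. For fibrillar members it was 1.10 and 2.27.

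These counts leaned on single animals. At 3E13 the LV count was 7 without 3E13 181, WT 248 or WT 626, and the RV count was 7 without 3E13 181 or WT 637 or 647 and 6 without 3E13 253. The Col12a1 call at 6E13 in LV was lost (count 0) without 6E13 250 or 631 or any of the WT animals 248, 626, 636, 637 and 647, and stayed without 645. The RV count at 6E13 was 0 without 6E13 250 or WT 637, 1 without WT 636 or 647, 2 without 6E13 631 and 12 without 6E13 645.

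Between the doses, 0 of 38 members were called in LV and 0 of 41 in RV, against 0.0122% and 0.0404% of all genes called by edgeR. At an unadjusted p under 0.05 there were 5 and 3 members, against 913 of 16410 and 1497 of 17307 over all genes. DESeq2 and limma called 0 members. In LV the difference of 6E13 minus 3E13 was -1.09 ± 0.38 for Col12a1 (adjusted p = 0.78), -1.62 ± 0.68 for Col8a2, -0.37 ± 0.39 for Col3a1 and 1.07 ± 0.46 for Col6a6. In RV it was -0.02 ± 0.59 for Col3a1, 0.60 ± 0.64 for Col1a1 and -1.41 ± 0.50 for Col8a2 (adjusted p = 0.439). The spread was wide at 6E13, where animal 250 had the highest and animal 645 the lowest summed collagen in both ventricles (541, 377 and 190 TPM in LV and 908, 479 and 241 TPM in RV for animals 250, 631 and 645).

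Last, the ventricles were compared within animals. In cKO hearts 11 of 41 members were higher in RV than in LV and 0 lower, against 1.89% higher and 2.19% lower over all genes. Among them were type VI chains, with Col6a2 at 0.79 ± 0.10 (adjusted p = 0.00347), Col6a1 at 0.89 ± 0.12 (adjusted p = 0.00426), Col6a3 at 0.60 ± 0.08 (adjusted p = 0.00456) and Col6a6 at 1.21 ± 0.27. The others were Col4a6 (1.46 ± 0.34), Col14a1 (0.95 ± 0.20), Col3a1 (0.82 ± 0.19), Col27a1 (0.80 ± 0.17), Col1a2 (0.71 ± 0.17), Col4a5 (0.63 ± 0.11) and Col18a1 (0.58 ± 0.14). In WT hearts 0 were called (8 at an unadjusted p under 0.05, with limma's voom also at 0), against 0.00556% of all genes, and in 6E13 hearts 0 (11 unadjusted, and 0 by voom), against 0.0111%. Of all 17981 genes, 1539 in WT and 1000 in 6E13 hearts had an unadjusted p under 0.05. For cKO the count was 4 without animal 180 or 264, and 5 without the 2 RVs with atrial transcripts. Without the animal as a block it was 1, and by voom with the block it was 14. Resting fibroblast markers were also higher in cKO RVs than LVs, 7 of 10, activated fibroblast markers 0 of 10 and atrial markers 3 of 3, and their part was not tested.

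The ratio of RV to LV CPM, on a common scale for both ventricles, was 2.52, 1.84, 1.55 and 1.65 for Col6a1 in cKO animals, 1.23 and 1.703 in 3E13 animals, 1.48, 1.35 and 1.14 in 6E13 animals and 0.764, 1.01 and 0.787 in WT animals. For Col3a1 it was 1.95, 2.17, 1.04 and 2.19 in cKO, 1.17 and 2.24 in 3E13, 1.93, 1.903 and 1.300 in 6E13 and 0.756, 0.886 and 0.619 in WT animals. For these 2 genes the ratio was above 1 in every Pkp2-cKO animal, treated or not, though only 1.04 for Col3a1 in cKO animal 257. In WT animals it ran from 0.619 to 1.01. Other members differed in treated hearts. In 3E13 animal 181 the ratio was 0.708 for Col1a1, 0.622 for Col4a1 and 0.866 for summed collagen TPM. In 3E13 animal 253 these were 1.60, 0.795 and 1.85. For Col4a6 and Col6a6 the cKO value was led by animal 177, at 7.67 and 6.15, with the other cKO animals between 1.78 and 2.63 for Col4a6 and between 1.42 and 2.23 for Col6a6.

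Whether the cKO effect was larger in RV was tested as an interaction, and 1 of 41 members passed, against 0.0111% of all genes. Col6a3 had a cKO effect 1.08 ± 0.13 larger in RV (adjusted p = 0.024), with RV to LV ratios of 1.36, 1.75, 1.46 and 1.54 in cKO animals, against 0.733, 0.671 and 0.756 in WT animals, and all 4 cKO animals above all 3 WT animals. The call was lost (count 0) without cKO 180 or 264, without WT 636, 637 or 647, or without the 2 RVs with atrial transcripts, while the difference stayed between 1.00 and 1.13, and the count was 3 without cKO 177 and 2 without cKO 257. At an unadjusted p under 0.05 there were 22 of 41 members, against 1874 of all 17981 genes. For the effect of 6E13, no member was called for a difference between ventricles (0 of 41, with 4 unadjusted, and 0 by voom), against 0.0% of all genes. Of all 17981 genes, 979 had an unadjusted p under 0.05 there.

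**Figure D5:**
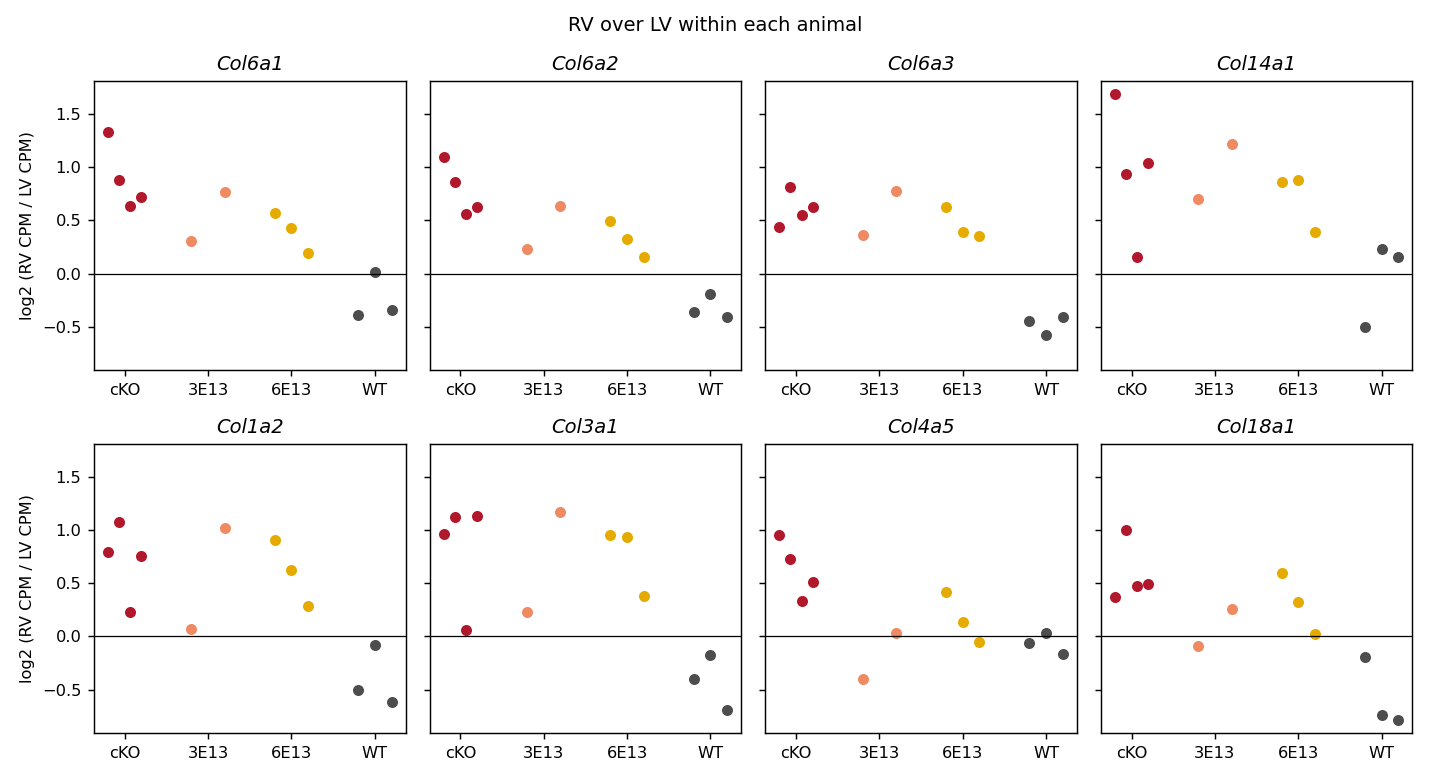
Log2 ratio of RV to LV CPM within each animal (vertical axis) by group (horizontal axis) for single collagen chain genes, each dot an animal with both ventricles. For Col6a3 all 4 cKO animals lie above 0, at ratios of 1.36 to 1.75, and all 3 WT animals below it, at 0.671 to 0.756.

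Genes that fold, cut and cross-link collagen chains were examined as a list. Of 26 tested, 19 were higher in cKO LVs and 20 in cKO RVs, and 0 lower, against 19.7% and 19.8% of all genes called higher. The leading genes in LV were Loxl1 (2.35 ± 0.18) and Loxl3 (3.35 ± 0.29), lysyl oxidase-like enzymes that cross-link chains, Adamts2 (2.79 ± 0.27), which removes the amino-terminal propeptide, and Fkbp10 (1.49 ± 0.17), a chaperone of the endoplasmic reticulum. At 6E13, 16 of the 26 were lower than in cKO in LV and 12 in RV, against 8.16% and 10.9% of all genes, and at 3E13 7 in each, against 6.25% and 3.83%. Of 9 receptors of collagen tested, 8 were higher in cKO in each ventricle, against the same 19.7% and 19.8% of all genes, led in LV by Mrc2 (1.71 ± 0.17), which takes up collagen fragments, Itga11 (2.31 ± 0.28), a fibroblast integrin, Itgb1 (0.64 ± 0.10), its β partner, and Lair1 (1.82 ± 0.42), an inhibitory receptor of leukocytes.

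The classes also differ in their genes. In mouse transcripts of the GENCODE annotation (GRCm39), the longest stretch of codons with a glycine codon first in every triplet was 337 to 345 triplets for fibrillar genes, apart from Col24a1 (216) and Col27a1 (217), and 30 to 113 for FACIT, network, basement membrane, beaded filament, multiplexin and transmembrane genes. Several members lie as pairs. Col4a1 and Col4a2 start head to head 355 bases apart on chromosome 8, Col4a3 and Col4a4 158 bases apart on chromosome 1, and Col4a5 and Col4a6 1282 bases apart on the X chromosome. The first pair rose together in both ventricles. In LV Col4a5 was called and Col4a6 was not, although the log2 fold change of Col4a6 (1.28) was the largest of the basement membrane genes there. Col3a1 (chromosome 1, 45350698 to 45395840, plus strand) and Col5a2 (45412554 to 45542442, minus strand) lie tail to tail, and both rose in cKO hearts. Col6a1 and Col6a2 follow each other on chromosome 10, whereas Col6a6, the chain that fell, lies on chromosome 9 (105564724 to 105705561, minus strand) beside Col6a5 and Col6a4.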

How the data were processed

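RNA sequencing covered 28 ventricle pieces of 16 mice. Per the labels a stranded kit that removes ribosomal RNA was used, though polyA RNA is named as the molecule. The authors trimmed reads and quantified them with Salmon 1.8.0 on GRCm39 transcripts with human PKP2 added, and summed transcripts to symbols. The deposited tables hold expected counts (not normalized), TPM and, as other values, average transcript lengths in bases. The authors left mitochondrial genes out and used Welch's test on log2 TPM, which is not used here.

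Expected counts were rounded. Each ventricle was fitted with all 4 groups by edgeR 4.0.16 (quasi-likelihood F test, filterByExpr, TMM, R 4.3.3) on 16410 genes in LV and 17307 in RV, with Benjamini-Hochberg adjustment over all genes and calls under 0.05. Replicate libraries are separate animals. Ventricles were compared over 24 libraries of 12 animals, 17981 genes, with the animal as a block, since the labels give both ventricles of an animal the same number. Levels are CPM on TMM-scaled totals. Totals of 19364764 to 39381176 counts set the counting precision, and a count of 0 allows up to 3, for counting error only. SE and SD include the spread between animals. An unnamed row (at most 0.000971% of counts) was left out. No 2 libraries of a group were copies (at least 17.9 times counting noise, chi-squared per degree of freedom).

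Alternatives were RLE size factors, no count filter, DESeq2 1.42.0, limma 3.58.1 on log2(TPM + 1) with a pseudocount of 1, no mitochondrial genes, length offsets, only the 2 groups compared, no animal block, voom, and each library left out. The fit without 2 cKO RVs was added after seeing the data. The fit was tested on simulated data. Members were taken by the symbol pattern alone, but the pattern, lists and tests were chosen with earlier results of these data known. Values in every library are given for the 2 members of each class with the highest mean TPM, Col1a1 and Col3a1. The same holds for the 3 called members with the largest change per comparison and for members against their class (Col11a2 in LV only). Members called between ventricles also have them, except Col27a1 and Col4a5, which have fold changes only. Of the lists of collagen processing genes and receptors, up to 4 genes with the smallest adjusted p in LV are given by fold change. Promoter windows are RefSeq's, of build GRCm38.p6, and share no coordinates with the files. Of the cell type lists, pericyte and smooth muscle markers had 1 of 9 higher and 1 lower in cKO LVs and 5 higher and 2 lower in RVs. Of 7 epicardial markers listed, 2 were tested in LVs and 2 were higher, and 5 were tested in RVs and 1 was higher. Over all genes, 19.7% were higher and 16.1% lower in LV, and 19.8% higher and 17.6% lower in RV.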

Additional observations from a re-analysis of the deposited data

Results flagged for a closer look

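Of 96 groups of 4 or 5 libraries examined, 3 held a library far from the others, and chance alone gives about 1 in 20. Col23a1, a transmembrane chain, was at 6.93 CPM in the LV of cKO animal 264, above the other cKO LVs at 2.58 to 3.27 CPM. Col26a1 was at 1.09 CPM in the RV of cKO animal 177, above the other cKO RVs at 0.0648 to 0.215 CPM. Col4a1 was at 472 CPM in the LV of cKO animal 180, below the other cKO LVs at 709 to 757 CPM and above all WT LVs, the highest of which had 354 CPM.

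Col6a3 differed between the ventricles in its response to Pkp2 loss, by 1.08 on the log2 scale (edgeR interaction test, adjusted p = 0.024, RV over LV higher in 4 of 4 cKO animals and lower in 3 of 3 WT animals). Leaving out any of 5 of the 7 animals lost the call.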

How the results depend on the processing

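The calls of cKO against WT were the most stable, at 24 to 26 members in LV and 28 or 29 in RV over all settings with all libraries, and no result changed direction. The comparisons with treated hearts moved. When only the 2 groups compared were fitted, the counts were 1 (3E13 against cKO, LV), 4 (6E13 against cKO, LV), 17 (3E13 against WT, LV), 4 (6E13 against WT, LV), 3 (3E13 against cKO, RV) and 0 (6E13 against WT, RV). These fits use fewer samples. With limma on log2(TPM + 1) they were 21 (3E13 against cKO, LV), 5 (3E13 against WT, LV), 0 (6E13 against WT, LV), 24 (3E13 against cKO, RV), 6 (3E13 against WT, RV) and 0 (6E13 against WT, RV). DESeq2 gave 8 for 6E13 against WT in LV, 21 for 3E13 against cKO in RV and 17 for 6E13 against WT in RV. Length offsets gave 0 for 6E13 against WT in LV, and no count filter gave 14 for it in RV. The cause was not tested. Shares over all genes are given for the main fit only. For the other settings, and with a library left out, a change among members cannot be told apart from one over all genes.

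With 1 library left out, the counts ran from 7 to 20 (3E13 against cKO, LV), 11 to 20 (6E13 against cKO, LV), 7 to 12 (3E13 against WT, LV), 0 to 1 (6E13 against WT, LV), 0 to 16 (3E13 against cKO, RV), 16 to 26 (6E13 against cKO, RV), 6 to 10 (3E13 against WT, RV) and 0 to 12 (6E13 against WT, RV). Where a group kept 1 library, it is assumed to vary like the others. For RV against LV the range was 4 to 9 in cKO hearts and 0 to 3 for the interaction. Animals pair the ventricles. Without the replicate block these counts were 1 (cKO hearts) and 0 (interaction), with other ventricle counts at 0 as before. With voom and the block they were 14 (cKO hearts) and 2 (interaction). Without the 2 cKO RVs with atrial transcripts, chosen after seeing the data, they were 5 and 0. Fibrillar shares by expected counts were 26.8% (WT LV), 46.4% (3E13 RV) and 27.9% (WT RV).

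Depth limits the scarce chains, such as Col24a1, Col9a2 and Col11a1, which had 0 to a few counts per WT library. TPM sums move with the mitochondrial share. With 2 libraries of 3E13 in RV and 3 of 6E13, sample numbers limit every dose comparison.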
